A study of Mus musculus with 8 samples.

Results

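A set of 10 genes of haemoglobin and iron handling was followed through RNA-seq of mouse subcutaneous fat: Hbb-b1, Hba-a1, Hba-a2, Alas2, Trf, Tfrc, Fth1, Ftl1, Hmox1 and Slc40a1. They are 10 of the 18022 genes in the deposited count table and were picked by gene symbol, not by their values. The first 4 serve as transcripts of the red cell line and the other 6 as iron genes of the tissue. The 4 KO libraries came from mice labelled Pkd1adipo delta/delta, in which the study deleted protein kinase D1 in adipocytes. The 4 WT libraries came from Pkd1(flox/flox) mice, so the controls carry the floxed alleles too. All mice were C57BL/6J, back-crossed 4 times, and every library has a mouse identifier of its own. Pkd1 is the study's name for the kinase, whose gene symbol is Prkd1. For the promoter driving Cre, and for the age and sex of the mice, the labels give nothing.

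Libraries held between 2617755 and 2873457 reads, and levels are given as CPM, reads scaled to a common library total. Adipocyte markers summed to between 24982 and 31197 CPM in KO libraries and between 25487 and 29312 CPM in WT libraries, so fat was present in all 8. Prkd1 itself had 71, 108, 84 and 94 reads in KO1 to KO4, against 88, 72, 94 and 73 reads in WT1 to WT4. Its log2 fold change was 0.06 ± 0.15 (SE), so the label could not be checked from the targeted gene. Counts are per gene, and reads outside a deleted stretch would be counted too. Libraries of 1 label were not alike. Chi-square per gene was 4.88 between KO2 and KO4 and 5.31 between KO1 and KO3, against 8.26 to 11.1 between the other KO pairs. Skeletal muscle markers summed to 2869, 1613, 315 and 2930.2 CPM in KO1 to KO4, against 329, 196, 430.4 and 69.5 CPM in WT1 to WT4. Liver markers, which include plasma protein genes, summed to 730.4, 1422, 575 and 779.7 CPM in KO1 to KO4, against 2466, 731, 772 and 2214 CPM in WT1 to WT4.

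Adult haemoglobin is a tetramer of alpha chains, from Hba-a1 and Hba-a2, and beta chains, here from Hbb-b1, each holding a haem with its iron. Alas2 makes the first precursor of haem in red cell precursors. Mature red cells keep little RNA and come to fat with its blood. Cells of the tissue take up iron bound to transferrin (Trf) through the transferrin receptor (Tfrc), store it in ferritin cages of heavy (Fth1) and light (Ftl1) chains, release it from haem with haem oxygenase 1 (Hmox1) and export it through ferroportin (Slc40a1). Iron regulatory proteins bind a hairpin, the iron-responsive element, when iron is scarce. In a 5′ UTR the bound hairpin blocks translation, and in the 3′ UTR of Tfrc it protects the transcript from decay. Transcript levels therefore report this control for Tfrc but not for ferritin protein.

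The hairpins are shown because they separate members whose transcript amount is under that control from those whose translation is. A motif of an unpaired C, a stem of any 5 bases, the loop CAGTG closed by any base but G, and 5 bases able to pair with the stem, G with U included, was searched in 1 transcript a gene of GENCODE M21. It was present in 190 of 21901 genes, or 0.868%. Among the members it was found once in the 5′ UTR of 4 genes and 4 times in the 3′ UTR of Tfrc, and no match was found in Trf, Hmox1 or the globins. The 6 loop bases are in capitals, and each stretch is given 5′ to 3′.

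Fth1-201, bases 87 to 115: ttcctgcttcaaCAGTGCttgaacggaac
Ftl1-201, bases 78 to 106: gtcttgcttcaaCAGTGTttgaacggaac
Slc40a1-201, bases 90 to 118: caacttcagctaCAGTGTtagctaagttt
Alas2-201, bases 84 to 112: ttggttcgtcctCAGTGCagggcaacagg
Tfrc-201, bases 3315 to 3343: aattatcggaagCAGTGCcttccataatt
Tfrc-201, bases 3694 to 3722: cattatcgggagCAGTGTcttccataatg
Tfrc-201, bases 3759 to 3787: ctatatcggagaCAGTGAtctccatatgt
Tfrc-201, bases 3806 to 3834: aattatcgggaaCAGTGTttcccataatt

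Promoters of an alpha and a beta gene are shown as background to the globin members. The part of these promoters in the globin levels of these libraries was not tested. The 250 bases before the start are from RefSeq on GRCm38.p6. The identifier ENSMUSG00000052305, named Hbb-b1 in the count table, is named Hbb-bs in the later annotation. Capitals mark a TATA box spelled ATATAA, the promoter element CCAAT, the element CACCC known from globin promoters, and GATAAG as the motif of GATA factors, all searched on both strands, and no marked match overlaps another.

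Hba-a1, chr11:32283422-32283671, plus strand: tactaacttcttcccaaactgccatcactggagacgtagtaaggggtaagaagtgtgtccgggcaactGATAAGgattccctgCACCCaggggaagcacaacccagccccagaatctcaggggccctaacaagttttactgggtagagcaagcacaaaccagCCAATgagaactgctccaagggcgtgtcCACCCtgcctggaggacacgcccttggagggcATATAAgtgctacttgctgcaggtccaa
Hbb-bs, chr7:103827929-103828178, minus strand: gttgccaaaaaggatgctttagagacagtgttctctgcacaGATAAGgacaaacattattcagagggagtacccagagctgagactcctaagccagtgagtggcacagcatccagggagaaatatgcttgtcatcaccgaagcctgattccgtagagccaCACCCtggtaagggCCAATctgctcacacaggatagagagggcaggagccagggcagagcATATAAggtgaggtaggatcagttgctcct

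Each motif alone is common: of 32851 promoter windows of this length, ATATAA is in 9.10%, CCAAT in 33.8%, CACCC in 52.0% and GATAAG in 6.55%. All 4 stand together in 0.14% of them, and in the windows of Hba-a1, Hba-a2, Hbb-bs and Hbb-bt. The Alas2 window holds CACCC alone of the 4. Both alpha promoters are identical over 247 of 247 aligned bases, and their transcripts over 537 of 538. Reads of Hba-a1 and Hba-a2 can thus hardly be told apart: 67.5% of the 50-base words of Hba-a1 also occur in Hba-a2. Hbb-b1 shares 65.8% of its words with Hbb-b2, the other adult beta gene of the table. The division of reads within each pair is uncertain for that reason.

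A difference between KO and WT libraries passed the test for none of the 10 genes. With edgeR's quasi-likelihood test, 0 of 10 members passed an adjusted p of 0.05, where 0.0% of the 14556 tested genes did. All 10 had an adjusted p of 0.998. No member passed an unadjusted p of 0.05 either, where 4.48% of tested genes, 652 in all, did. DESeq2 called 32 genes higher and 4 lower in KO libraries and limma-voom called 0, and no member was among the calls of any tool. KO and WT values overlapped for all 10 members, while they did not overlap for 2.93% of tested genes. In bulk tissue, fewer cells of a type and less RNA per cell cannot be told apart.

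The 3 globin transcripts had levels above those of 96.0% or more of the tested genes and varied widely within both labels. Hbb-b1, the beta chain, stood at 319.6, 214, 249.9 and 82.8 CPM in KO1 to KO4, against 302, 215, 188 and 427 CPM in WT1 to WT4. The lowest value was from KO4 and the highest from WT4, and the remaining libraries overlapped, at 214 to 319.6 CPM in KO and 188 to 302 CPM in WT. The mean was 216 ± 99.4 CPM in KO libraries and 283 ± 108 CPM in WT libraries (SD, n = 4 each). The log2 fold change was -0.39 ± 0.43 (SE), with a 95% interval from -1.39 to 0.62, or 0.381-fold to 1.54-fold. An exact two-sided permutation test of log2(CPM + 0.5), which cannot go below 0.02857 with 4 against 4, gave p = 0.429.

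Hba-a1, an alpha chain gene, stood at 253, 190.2, 233 and 88.1 CPM in KO1 to KO4, against 245, 201, 153 and 364 CPM in WT1 to WT4. Hba-a2, its copy, stood at 242.5, 181, 217 and 77.2 CPM in KO1 to KO4, against 239.8, 187, 155 and 335 CPM in WT1 to WT4. Both kept the order of Hbb-b1 at its ends, lowest in KO4 and highest in WT4. Their log2 fold changes were -0.33 ± 0.37 for Hba-a1 and -0.35 ± 0.37 for Hba-a2 (SE). The exact permutation p was 0.486 for Hba-a1 and 0.457 for Hba-a2.

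Summed, the 3 globins took 0.0811%, 0.0597%, 0.0713% and 0.0247% of reads in KO1 to KO4, against 0.0789%, 0.0582%, 0.0496% and 0.112% in WT1 to WT4. In CPM the sum was 587 ± 245 in KO libraries and 752 ± 276 in WT libraries (SD, n = 4 each), a ratio of 0.78. KO4 alone sat far below the other KO libraries: without it the KO mean was 700.1 ± 115 CPM (n = 3). The sum differed 3.29-fold between KO libraries and 2.27-fold between WT libraries, more than between the 2 means. The ratio of alpha to Hbb-b1 reads, which does not depend on scaling, was much steadier. It was 1.55, 1.74, 1.80 and 1.996 in KO1 to KO4, against 1.604, 1.80, 1.63 and 1.64 in WT1 to WT4. Hbb-b2, not a member, kept 0.559 to 0.597 reads per Hbb-b1 read in all 8 libraries.

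Alas2 was rare and did not keep a fixed proportion to the globins. It had 20.5, 14.0, 12.7 and 14.2 CPM in KO1 to KO4, against 18.6, 9.88, 14.5 and 21.7 CPM in WT1 to WT4. KO4, lowest in globins, was mid-range in Alas2, and WT2 was lowest. Per 1000 globin reads there were 25.1, 23.9, 18.1 and 57.1 Alas2 reads in KO1 to KO4, against 23.6, 16.4, 29.3 and 19.3 in WT1 to WT4. The log2 fold change was -0.08 ± 0.24 (SE), with an interval from -0.60 to 0.44, and the exact permutation p was 0.8286. Between 25 and 60 Alas2 reads per library stand behind these values, and Apex2, which overlaps Alas2 on the other strand, had 740 reads to the 350 of Alas2 over all libraries. The kit does not mark strand, so the 2 genes may share reads.

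**Figure D1:**
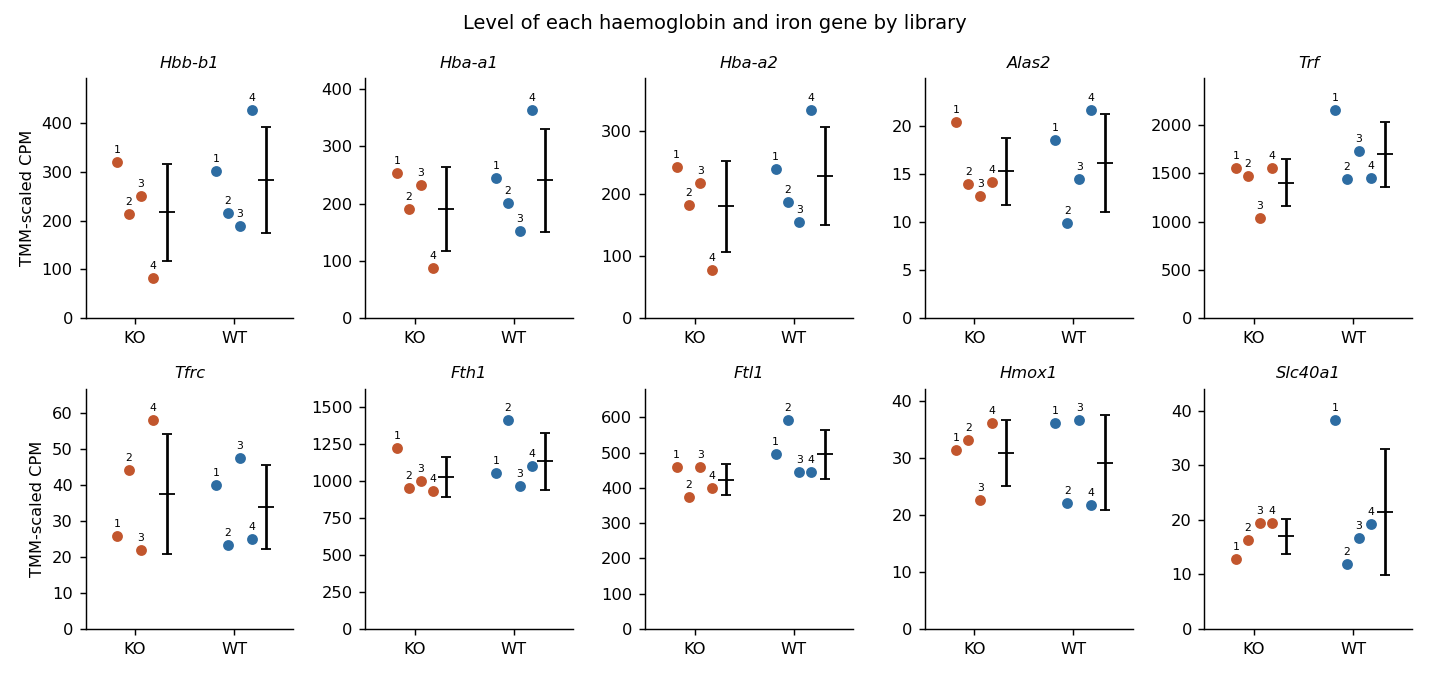
TMM-scaled CPM of each of the 10 genes in the 4 KO and 4 WT libraries, 1 point a library. Each gene has its own panel with a linear axis, and the mean and SD of each label stand beside the points. The globins are lowest in KO4 and highest in WT4, and KO and WT points overlap for every gene.

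Other markers of blood were set beside the globins, and those of platelets and neutrophils gave few reads. Of 34 erythroid symbols listed beside the members' own, 13 were measured, 12 tested, and 6 of those lay above and 6 below no change, with none past the threshold. Their sum was 562, 433, 463 and 337 CPM in KO1 to KO4, against 503, 453, 385 and 561 CPM in WT1 to WT4. Hbb-b2, which shares sequence with Hbb-b1, supplied 30.9% of that sum. Without Hbb-b2 the sum of the other 12 genes was 372, 312, 320.9 and 288 CPM in KO1 to KO4, against 335, 331, 278 and 320.1 CPM in WT1 to WT4. KO4 was then the lowest KO library, but WT3 lay below it and WT4 was no longer high. These 12 genes include some that other cells make too, such as Ank1, so their sum is not specific to red cells. The other 21 symbols were absent from the deposited counts. The listed symbols included Hbb-bs and Hbb-bt, later names of Hbb-b1 and Hbb-b2. Ank1, an anchor of the red cell membrane that muscle also makes, had 8.48 ± 5.75 CPM in KO libraries and 2.8 ± 2.19 CPM in WT libraries (SD, n = 4 each). Its log2 fold change of 1.56 ± 0.55 did not pass (adjusted p = 0.998). Ube2l6, a ubiquitin-conjugating enzyme, had 14.5 ± 2.67 CPM in KO libraries and 20.6 ± 2.84 CPM in WT libraries, a log2 fold change of -0.51 ± 0.18 that did not pass either. Platelet markers summed to between 28.9 and 33.6 CPM in KO libraries and between 32.4 and 41.9 CPM in WT libraries, and neutrophil markers to at most 7.08 CPM in KO libraries and 8.16 CPM in WT libraries. As a description over the 8 libraries, the platelet sum had r = -0.07 with the globin sum on log2(CPM + 0.5). It was 33.6 CPM in both KO1 and KO4, the KO libraries with the highest and the lowest globin sum. It rested on 4 of 10 listed genes, and Pf4 supplied 75.1% of it.

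Transferrin was the most abundant member by CPM, with a level above 99.6% of tested genes. Trf stood at 1554, 1469, 1037 and 1554 CPM in KO1 to KO4, against 2158, 1438, 1730.2 and 1451 CPM in WT1 to WT4. KO3 lay alone at the bottom and WT1 alone at the top, and the other 6 libraries overlapped. The mean was 1404 ± 247 CPM in KO libraries and 1694 ± 337 CPM in WT libraries (SD, n = 4 each). The log2 fold change was -0.27 ± 0.18 (SE), with an interval from -0.66 to 0.11, or 0.635-fold to 1.08-fold, and the exact permutation p was 0.286. Trf is a secreted protein of liver, and the liver marker sum was highest in WT1, where Trf was highest. In WT4 the liver sum was nearly as high, at 2214 CPM, and Trf was 1451 CPM. Trf was below the liver sum in WT1 and WT4 and above it in the rest. In those the liver sum lay between 575 and 1422 CPM. The part of liver transcripts in Trf was not tested. Gm20425, which overlaps Trf on the same strand, had 1.01 reads per Trf read in every library, so the counts of both were nearly equal and cannot be told apart.

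The transferrin receptor was far less abundant and split the libraries without regard to label. Tfrc stood at 25.9, 44.3, 21.9 and 58.0 CPM in KO1 to KO4, against 40.1, 23.3, 47.5 and 25.0 CPM in WT1 to WT4. KO2, KO4, WT1 and WT3 lay at 40.1 CPM or more, and KO1, KO3, WT2 and WT4 at 25.9 CPM or less. The mean was 37.5 ± 16.8 CPM in KO libraries and 34.0 ± 11.8 CPM in WT libraries (SD, n = 4 each). The log2 fold change was 0.14 ± 0.35 (SE), with an interval from -0.65 to 0.93, and the exact permutation p was 0.771. Without KO4, which had the highest level, the log2 fold change was -0.15, so its sign rested on that library.

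Ferritin heavy chain had the steadiest levels of the members together with the light chain. Fth1 stood at 1223, 948, 997 and 929 CPM in KO1 to KO4, against 1049, 1407, 962 and 1100.2 CPM in WT1 to WT4. WT2 was highest and KO1 next, and the other 6 libraries lay within 929 to 1100.2 CPM. The mean was 1024 ± 136 CPM in KO libraries and 1129.6 ± 193 CPM in WT libraries (SD, n = 4 each), a log2 fold change of -0.14 ± 0.16 (SE) with an interval from -0.48 to 0.20 and an exact permutation p of 0.429.

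Ftl1 stood at 459, 375, 460.3 and 399 CPM in KO1 to KO4, against 497, 591, 446 and 445 CPM in WT1 to WT4. WT2 was again highest, and KO2 was lowest. The mean was 423 ± 43.3 CPM in KO libraries and 495 ± 68.6 CPM in WT libraries (SD, n = 4 each). Its log2 fold change of -0.22 ± 0.14 (SE) had an interval from -0.52 to 0.07, and the exact permutation p was 0.171. Ftl1 shares 78.9% of its 50-base words with other genes, among them Gm10116, Gm15590 and Ftl2, which had 6923, 4053 and 3428 reads over all libraries to the 10134 of Ftl1. Those look-alikes had log2 fold changes of -0.24 ± 0.14, -0.21 ± 0.14 and -0.26 ± 0.14 in that order. The same reads may be counted at several of these genes. The level of Ftl1 is therefore uncertain, and the shared direction is not separate evidence for its own.

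The 2 ferritin chains together had 1448 ± 168 CPM in KO libraries and 1624 ± 257 CPM in WT libraries (SD, n = 4 each), a ratio of 0.891, and their sum spanned 1.51-fold over the 8 libraries, against 4.54-fold for the globin sum. Heavy to light chain reads stood at 2.66, 2.53, 2.17 and 2.33 in KO1 to KO4, against 2.11, 2.38, 2.16 and 2.47 in WT1 to WT4. The ranges of both labels overlapped.

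Haem oxygenase 1, the enzyme that opens the haem ring and frees its iron, stood at 31.4, 33.1, 22.6 and 36.1 CPM in KO1 to KO4, against 36.1, 22.1, 36.5 and 21.7 CPM in WT1 to WT4. KO3, WT2 and WT4 were low and the other 5 libraries lay between 31.4 and 36.5 CPM. The Hmox1 mean was 30.8 ± 5.80 CPM in KO libraries and 29.1 ± 8.31 CPM in WT libraries (SD, n = 4 each). The log2 fold change was 0.08 ± 0.21 (SE), with an interval from -0.37 to 0.52, and the exact permutation p was 0.8. The sign turned to -0.01 without KO4, -0.03 without WT2 and -0.04 without WT4.

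For ferroportin, the iron exporter, the lower KO mean rested on 1 WT library. Slc40a1 had 12.8, 16.4, 19.4 and 19.5 CPM in KO1 to KO4, against 38.3, 11.9, 16.7 and 19.2 CPM in WT1 to WT4. WT1 stood apart at the top, WT2 lay below every KO library, and WT3 and WT4 lay among them. The mean was 17.01 ± 3.17 CPM in KO libraries and 21.5 ± 11.6 CPM in WT libraries (SD, n = 4 each). The log2 fold change of -0.34 ± 0.32 (SE) had an interval from -1.03 to 0.35, with an exact permutation p of 0.714. Without WT1 it was 0.09. Macrophages recycle iron through Hmox1 and Slc40a1. Their markers summed to 1193, 1307, 1273 and 1387 CPM in KO1 to KO4, against 1307, 1602, 1439 and 1124 CPM in WT1 to WT4. That sum was highest in WT2, where Slc40a1 was lowest and Hmox1 was 22.1 CPM. It was lowest in WT4, where Hmox1 was lowest, at 21.7 CPM, and Slc40a1 was 19.2 CPM. The part of macrophages in either gene was not tested.

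**Figure D2:**
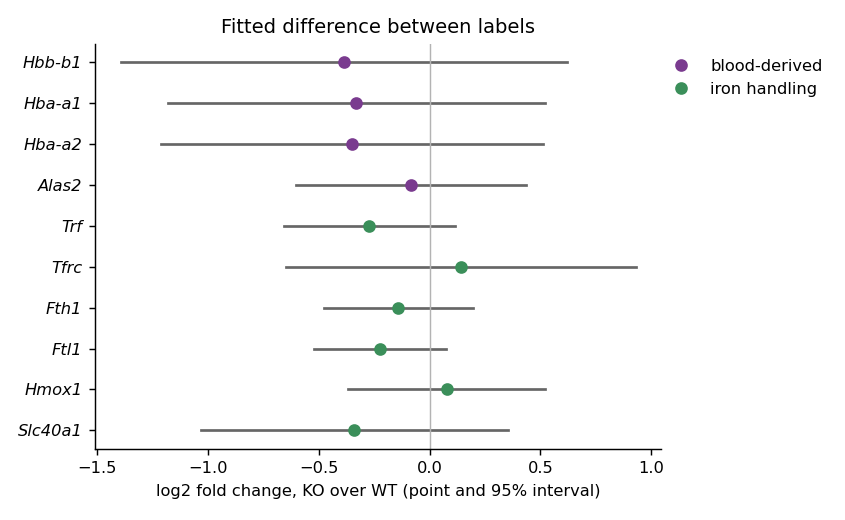
Log2 fold change, KO over WT, of the 10 genes with 95% intervals from edgeR's quasi-likelihood fit, blood-derived genes in purple and iron genes in green. Every interval crosses 0, and those of the globins are the widest, from -1.39 to 0.62 for Hbb-b1.

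In the authors' deposited table, 436 of 18022 genes, 2.42%, had an adjusted p under 0.05, and no member was among them. Its smallest adjusted p for a member was 0.816, for Hbb-b1 with a log2 fold change of -0.39. It gave -0.34 for Hba-a1, -0.36 for Hba-a2, -0.09 for Alas2, -0.28 for Trf, 0.14 for Tfrc, -0.15 for Fth1, -0.23 for Ftl1, 0.07 for Hmox1 and -0.35 for Slc40a1.

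Levels of different genes were compared per kilobase of transcript, as CPM per kb over the 8 libraries. Fth1 came first at 1159 CPM per kb, with libraries between 999.7 and 1514, above every library of the next gene. Trf followed at 602 (403 to 839) and Ftl1 at 474 (387 to 611), then Hbb-b1 at 398 (132 to 679.9), Hba-a2 at 369 (139 to 604) and Hba-a1 at 309 CPM per kb (126 to 521). These 5 overlapped, so their order is not beyond their spread. Hmox1 stood alone at 19.1 CPM per kb (13.8 to 23.3). Alas2 at 7.73 (4.85 to 10.7), Tfrc at 7.31 (4.48 to 11.9) and Slc40a1 at 5.71 CPM per kb (3.52 to 11.4) overlapped again. Shared reads blur these levels for the globins, Trf and Ftl1.

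**Figure D3:**
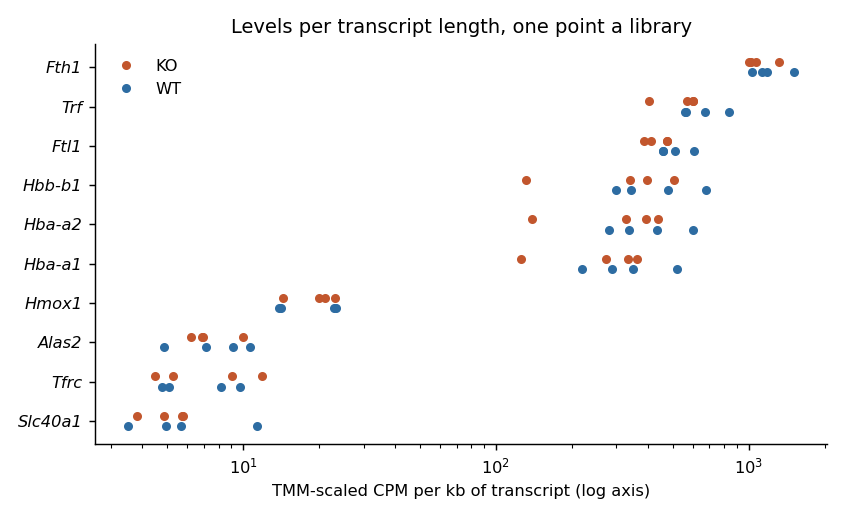
CPM per kilobase of transcript (log axis) of the 10 genes in the KO and WT libraries, 1 point a library. Fth1 lies above all others at 999.7 to 1514, and Alas2, Tfrc and Slc40a1 lie lowest with overlapping points.

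Spread over the 8 libraries was wide for some members of each kind. The coefficient of variation was 40.9% for Hbb-b1, 37.4% for Hba-a1 and 36.7% for Hba-a2, more than in 95.6% or more of the 11470 genes with at least 10 CPM. Slc40a1 at 42.7% and Tfrc at 37.9% were as variable. Alas2 at 25.9%, Hmox1 at 22.3% and Trf at 20.3% were in between. Fth1 at 15.3% and Ftl1 at 14.2% lay below the median of 16.1% over the same genes.

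The iron genes were then set against the globin sum across the 8 libraries, on log2(CPM + 0.5), with exact permutation p-values for 7 genes. No relation passed after adjustment. Tfrc came closest: Pearson's r was -0.71 (exact permutation p = 0.0267, adjusted p = 0.187) and Spearman's rho -0.64 (exact permutation p = 0.0962, adjusted p = 0.224). Without KO4 and WT4, the libraries farthest from the median globin sum, r was -0.45 (exact permutation p = 0.331) and rho -0.54 (p = 0.297), so r was smaller without those libraries while rho moved less. Tfrc also fell into 2 sets of 4 libraries, too few to compute r within each. With each label's mean removed r was -0.73 (exact permutation p = 0.059). Within a label alone, 4 libraries are too few for a correlation.

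Alas2, the other red cell gene, had r = 0.50 (exact permutation p = 0.202) and rho = 0.57 (p = 0.151) with the globin sum. Hmox1 had r = -0.52 (exact permutation p = 0.197) and rho = -0.69 (p = 0.0694), and without KO4 and WT4 r was -0.07 and rho -0.31. For Fth1, r was 0.43 (exact permutation p = 0.287) and rho 0.71 (p = 0.0576), with r = 0.27 and rho = 0.60 without those libraries. Ftl1 had r = 0.33 (exact permutation p = 0.406) and rho = 0.33 (p = 0.428). Trf had r = -0.05 (exact permutation p = 0.9) and rho = -0.24 (p = 0.582), and Slc40a1 r = 0.09 (exact permutation p = 0.815) and rho = -0.05 (p = 0.935). Adjusted over the 7 genes, these lay between 0.472 and 0.9 for r, and between 0.224 and 0.935 for rho.

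**Figure D4:**
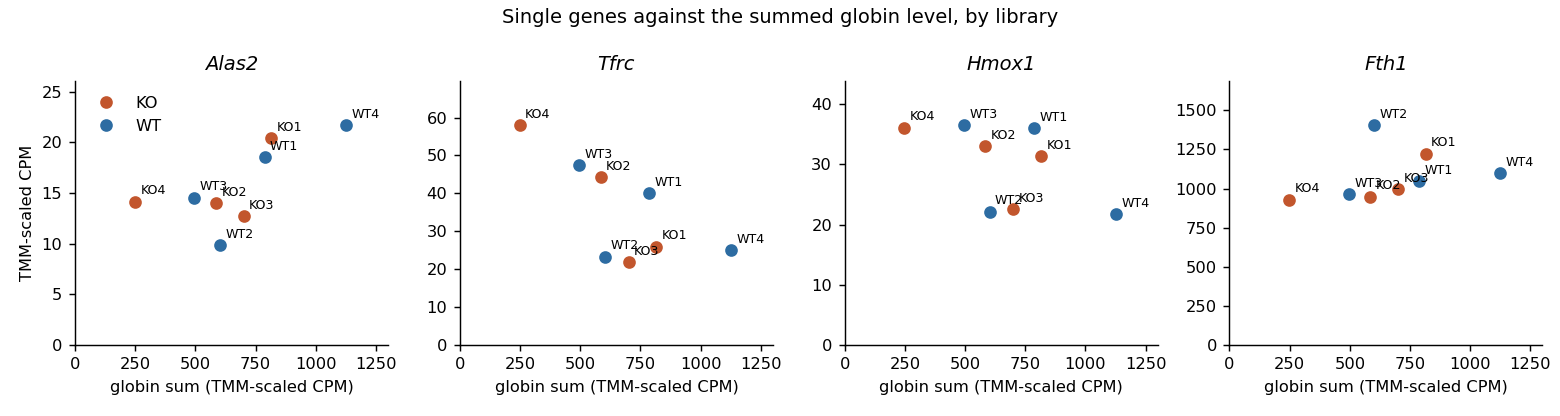
TMM-scaled CPM (linear axes) of Alas2, Tfrc, Hmox1 and Fth1 against the globin sum, 1 point a library, KO and WT marked. KO4, at the low end of the globin sum, had the highest Tfrc, 58.0 CPM. WT4, at the high end, had 25.0 CPM of Tfrc, above KO3 and WT2. On log2(CPM + 0.5), Pearson's r for Tfrc was -0.71 over 8 libraries and -0.45 without KO4 and WT4.

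Fth1 and Tfrc also moved with a property of the libraries. Transcripts under 1000 bases took 6.73%, 6.11%, 6.35% and 5.96% of reads in KO1 to KO4, against 6.24%, 6.52%, 6.04% and 6.21% in WT1 to WT4. As a description over these 8 libraries, that share had r = 0.82 and rho = 0.86 with Fth1, a short transcript, and r = -0.78 and rho = -0.79 with Tfrc, a long one. With the globins r lay between 0.53 and 0.54 and rho was 0.67, and with Ftl1 r was 0.59 and rho 0.71. Reads of Fth1, Ftl1 and the globins are themselves part of that share. With that share as a covariate, chosen after the data were seen, the log2 fold changes were -0.16 for Fth1 and 0.16 for Tfrc, and no member passed. Its part in the relation of Tfrc to the globin sum was not tested.

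Patterns most like those of the globin sum and of the 6 iron genes were listed by Pearson's r over the 8 libraries among 11460 genes of at least 10 CPM, as a description. Nearest to the globin sum were Hbb-b2 (r = 0.996), 4930404A10Rik (0.97) and Erbb2 (0.95). Trf was nearest to Gm20425 (r = 0.99996), which shares its reads, Serpina3c (0.95) and Paqr7 (0.94). For Tfrc they were Rnf146 (r = 0.98), Sema3c (0.98) and mt-Nd1 (0.97). Genes like Fth1 included Gnb2l1 (r = 0.98) and Ptcd2 (0.98), and Ftl1 was nearest to AY036118 (0.98), Sdf4 (0.98) and Rpl7a-ps12 (0.97). For Hmox1 they were Gtdc1 (r = 0.98), Mtx2 (0.97) and Robo1 (0.96), and for Slc40a1 Mycbp2 (0.97), Itih5 (0.94) and Arl5a (0.93). Between members, Hmox1 and Tfrc had r = 0.87 and rho = 0.86, and Fth1 and Ftl1 had r = 0.82 and rho = 0.71.

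The rest of the iron pathway showed no passing change either, against a median log2 fold change of 0.00 over all tested genes. Of 8 haem synthesis genes 5 were higher and 3 lower, with a median of 0.10. Among them Alas1, the form of the first enzyme used outside red cells, had 166 ± 38.8 CPM in KO libraries and 156 ± 20.5 CPM in WT libraries (SD, n = 4 each). Fech, which inserts iron into the ring, had 81.9 ± 4.07 CPM in KO libraries and 75.4 ± 8.13 CPM in WT libraries. Uros and Urod, middle steps of the pathway, had log2 fold changes of 0.17 ± 0.15 and -0.18 ± 0.15 (SE) in that order.

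Of 13 tested genes of haem breakdown, scavenging and transport, 4 lay above and 9 below no change, with a median of -0.06. Hp, haptoglobin, which binds haemoglobin set free in plasma and is made by fat as well as liver, had 959.7 ± 244.4 CPM in KO libraries and 1261 ± 135 CPM in WT libraries (SD, n = 4 each). Its log2 fold change was -0.39 ± 0.18 (SE, unadjusted p = 0.0446, adjusted p = 0.998 in edgeR's quasi-likelihood test). Slc48a1, a carrier that moves haem out of lysosomes, had 182 ± 4.48 CPM in KO libraries and 218 ± 16.8 CPM in WT libraries. Its log2 fold change was -0.26 ± 0.11 (unadjusted p = 0.0355, adjusted p = 0.998), and all 4 KO values lay below all 4 WT values, as KO and WT values do not overlap for 2.93% of tested genes. Lrp1, a receptor that also clears haem bound to haemopexin, was at -0.06 ± 0.15.

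Iron uptake genes other than members divided evenly, 5 above and 5 below no change, with a median of 0.02. Steap4, a ferrireductase of fat, had 457 ± 37.9 CPM in KO libraries and 432 ± 79.5 CPM in WT libraries, and Scara5, a receptor for ferritin, had 165 ± 36.6 CPM in KO libraries and 133 ± 26.1 CPM in WT libraries (SD, n = 4 each). Steap2, of the same family as Steap4, was at 0.55 ± 0.45 (SE, log2). Of 6 storage and export genes 2 were higher and 4 lower, with a median of -0.01. They were Ncoa4, which carries ferritin to its breakdown, at 0.17 ± 0.11, the iron chaperones Pcbp1 at -0.00 ± 0.12 and Pcbp2 at -0.01 ± 0.12, and the ferroxidases Cp at -0.02 ± 0.14, Heph at -0.12 ± 0.13 and Hephl1 at 0.36 ± 0.90.

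Among 21 genes of iron sensing, 9 lay above and 12 below no change, with a median of -0.04. Aco1, one of the iron regulatory proteins, had 189 ± 16.1 CPM in KO libraries and 184 ± 24.5 CPM in WT libraries, and Epas1, a hypoxia-inducible factor, had 521 ± 47.0 CPM in KO libraries and 501 ± 20.4 CPM in WT libraries (SD, n = 4 each). Hfe2, hemojuvelin, a gene of skeletal muscle and liver, had 8.16 ± 5.58 CPM in KO libraries and 1.99 ± 1.80 CPM in WT libraries. Its log2 fold change of 1.99 ± 0.77 (SE) did not pass (unadjusted p = 0.0287, adjusted p = 0.998). Hfe2 had 10.96, 6.13, 1.41 and 14.2 CPM in KO1 to KO4, against 4.37, 0, 1.77 and 1.81 CPM in WT1 to WT4. The 3 high values belong to the 3 libraries richest in muscle markers, and the part of muscle in it was not tested. Egln3, a prolyl hydroxylase acting on hypoxia-inducible factors, was at -0.69 ± 0.32.

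Of 18 mitochondrial iron and iron-sulfur cluster genes, 6 lay above and 12 below no change, with a median of -0.06. Nfs1, which supplies the sulfur, was at -0.07 ± 0.11, Isca2 at -0.23 ± 0.13 and Glrx5 at -0.23 ± 0.16 (SE, log2). Hmox1 and the ferritin genes are known targets of the factor NRF2. Of 10 others, 4 lay above and 6 below no change, with a median of -0.05. Me1, malic enzyme, had 360 ± 182 CPM in KO libraries and 435 ± 99.9 CPM in WT libraries (SD, n = 4 each), and Txnrd1 was at -0.11 ± 0.12, G6pdx at -0.10 ± 0.14 and Slc7a11 at -0.24 ± 0.28.

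Markers of other cells that hold or move iron are given for the same libraries. Of 18 macrophage genes, 7 lay above and 11 below no change, with a median of -0.07. Lyve1, a marker of resident macrophages and lymph vessels, was at 0.42 ± 0.15 and Lyz2 at -0.24 ± 0.15 (SE, log2), neither past the threshold. Endothelial markers summed to between 914 and 1257 CPM in KO libraries and between 1021 and 1265 CPM in WT libraries, and progenitor and fibroblast markers to between 2290.1 and 3304 CPM in KO libraries and between 2626 and 3520.3 CPM in WT libraries. B cell markers summed to between 42.4 and 61.6 CPM in KO libraries and between 66.6 and 129 CPM in WT libraries, most of it from Ighm, and lymph node and T cell markers to between 10.2 and 15.7 CPM in KO libraries and between 14.2 and 23.3 CPM in WT libraries. All 14 skeletal muscle genes lay above no change, with a median of 2.83, and 14 of 15 liver genes below it, with a median of -1.86. None of these passed the adjusted threshold. In edgeR's quasi-likelihood test 13 of the 14 muscle genes and 0 of the 15 liver genes had an unadjusted p under 0.05, as did 4.48% of tested genes. So did 1 of 18 macrophage genes and the 1 tested B cell gene, whose log2 fold change was -0.91. No tested endothelial, progenitor and fibroblast, or lymph node and T cell gene did. The parts of these cells and tissues in the members' values were not tested.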

How the data were processed

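Poly(A) RNA of DNase-treated total RNA from subcutaneous fat was sequenced from unstranded libraries, per the labels' protocols. Bowtie2, FastQC and edgeR stand in the submitters' processing notes with build mm9; the read counter was not given in the sources used. Raw, unscaled read counts for each gene were deposited, as was a table of 1 comparison by the authors, which per the file headers holds log2 fold changes, log2 mean CPM and p-values.

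Groups came from the sample titles. Counts were tested with edgeR 4.0.16 in R 4.3.3: TMM scaling, filterByExpr (14556 of 18022 genes tested, all 10 members among them), a robust quasi-likelihood fit with the label alone, and Benjamini-Hochberg adjustment over all tested genes at 0.05. CPM values are TMM-scaled, a pseudocount of 0.5 was used on the log scale, and standard errors and 95% intervals come from the F statistic. The fit was tested on simulated data. Alternatives were DESeq2 1.42.0, limma 3.58.1 (voom), other scalings and filters, and leaving out libraries. Single values were compared by exact permutation over the 70 divisions of 8 libraries. Each library is 1 mouse, and p-values measure the spread between these mice.

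The genes named are all members, the 2 genes of smallest p and the 2 of highest level in each list, in part, the 3 of most similar pattern, and Prkd1. Apex2, the Ftl1 look-alikes, Pcbp2, Hephl1 and Hbb-bt were named in addition. Some genes that this rule names are not reported here. The 10 members and the 18 gene lists were chosen with earlier results of these data known. Within a label, no pair of libraries had a chi-square per gene under 4.45, so none was counted as a copy. Libraries of the same number deviated from their label means with correlations between -0.286 and -0.140, so numbers were not taken as pairs. The genome at hand is of another build than mm9, so transcript and promoter sequences name their own annotation. UTRs were set by the longest reading frame of a transcript. RefSeq promoters were matched by symbol or gene ID for 7 members, not for Trf, Hmox1 or Slc40a1.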

Additional observations from a re-analysis of the deposited data

Results flagged for a closer look

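With 4 libraries a label, a library was picked out where its gap to the nearest other library passed Dixon's 95% critical value as a share of the whole range. Chance gives about 1 such library in 20 groups, and 30 groups were looked at. Trf in KO3 was 1037 CPM, with the nearest KO library at 1469 CPM, a gap of 0.836 of the range. The ratio of alpha-globin to Hbb-b1 reads in WT2 was 1.80, with the nearest WT library at 1.64, a gap of 0.841 of the range. KO libraries covered 1.55 to 1.996 in that ratio.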

How the results depend on the processing

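No member passed an adjusted p of 0.05 under any alternative run, and the smallest adjusted p of a member was 0.756, for Ftl1 with the share of short transcripts as a covariate. Of the recomputed values, 321 were rated the same, 12 turned their sign and 5, all counts of called genes, moved. For fold changes, the same means an unchanged direction and side of the threshold. For counts of genes it means a similar count, and for summed levels a shift smaller than their spread. Over all genes, 30 were called higher and 4 lower by edgeR's likelihood ratio test, 32 higher and 4 lower by DESeq2, and up to 50 higher (without KO3) when a library was left out, against 0 otherwise. The cause was not tested. Leaving out 1 library at a time turned the sign of 4 members: Alas2 ranged from -0.256 to 0.0867, Tfrc from -0.145 to 0.349, Hmox1 from -0.0424 to 0.208 and Slc40a1 from -0.536 to 0.0926. Without WT1 and WT4, the libraries with the highest liver sums, chosen after seeing the data, which are also the WT libraries with the highest globin sums, log2 fold changes were 0.10 for Hbb-b1, 0.11 for Hba-a1, 0.0723 for Hba-a2, 0.32 for Alas2 and 0.25 for Slc40a1. Leaving them out raises the globin fold change by construction. With 1 library left out at a time all 3 globins stayed below 0: Hbb-b1 ranged from -0.63 to -0.12, Hba-a1 from -0.50 to -0.06 and Hba-a2 from -0.53 to -0.10, smallest in size without KO4 or WT4. They were larger in size with limma-voom, at -0.66, -0.52 and -0.57 in that order, and with the short-transcript covariate, at -0.55, -0.44 and -0.47. The correlation of Trf with the globin sum turned to 0.0686 without KO4 and WT4. With the replicate block, Hbb-b1 was at -0.41, Tfrc at 0.11 and Slc40a1 at -0.23, and 0 genes were called, 453 at an unadjusted p of 0.05; no library correlated best with its own number. Between 25 and 60 reads of Alas2 a library and 30 to 105 of Slc40a1 limit their precision.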
